A study of Mus musculus with 564 samples.

Results

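The 38 genes described here run the cell division cycle and DNA replication, and their H3K27ac, the acetylation of histone H3 that accompanies active regulatory DNA, was followed in mouse bone marrow-derived macrophages (BMDMs). Members were the rows of the deposited table, each a cis-regulatory element (CRE), whose centre lies within 5 kb of an mm10 RefSeq transcription start of 1 of the 38 genes. The rule kept 65 of 59190 CREs, and all 38 genes have at least 1 of them. Of these genes 21 have 1 CRE, 12 have 2 and 5 have 3 or more. The centre of 40 member CREs lies within 1 kb of the start. By position, 20 centres fall in an exon, 21 in an intron and 24 between genes. The CRE nearest to a start is called the start CRE of the gene. Any annotated transcript start counts, alternative ones included, so this CRE need not lie at the main promoter. Every other member is named by its distance from the nearest start in bp, with a minus sign for upstream.

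Progression through the cell cycle is driven by cyclins bound to cyclin-dependent kinases (CDKs). D-type cyclins act in G1 and release E2F transcription factors from the retinoblastoma protein, E2F targets include the licensing factors and the enzymes that make nucleotides for S phase, and cyclin B with CDK1, the polo-like kinases and the Aurora kinases take the cell through mitosis. BMDMs divide in response to macrophage colony-stimulating factor. Lipopolysaccharide (LPS), a bacterial ligand of TLR4, is known to stop their proliferation, while interleukin 4 (IL-4) drives the alternative activation of macrophages. H3K27ac was read in cell populations, so fewer cells in cycle and less acetylation per cell cannot be told apart.

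The macrophages came from young adult wild type male mice of the C57/BL6 strain. Cells received vehicle (DMSO) or 1 of 58 clinical kinase inhibitors (CKIs) for 1 h and were then stimulated with LPS or IL-4, each at 10 ng/mL, for 30 min, 1 h, 2 h or 4 h. Unstimulated cells (UT) received the same pre-treatment, and their labels name 4 h without stimulus while their titles name time 0. The DMSO libraries form 9 groups of 2 replicates, and of the groups of CKI, stimulus and time 474 hold 1 library and 36 hold 2. The concentration differed between CKIs, so values of single CKIs are set side by side, and every test of CKIs against other CKIs holds CKIs at unequal concentrations. The sources used here do not say whether replicates are separate cultures, so p-values measure the spread between these samples only.

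Values are normalised read counts per CRE, scaled and rounded by the authors, and they summed to 5924000 to 6874000 in the 18 DMSO libraries and 4067000 to 12390000 in the 546 CKI libraries. These totals are not sequencing depth. The spacing of the values put the reads in CREs at 2338000 to 5414000 for the 16 stimulated DMSO libraries and at 170300 to 6599000 for 535 CKI libraries, with no estimate for the UT libraries of DMSO. The contrast of a library, the median value of the 10% of CREs with the highest mean over all libraries divided by that of the 10% with the lowest, was 53 to 133.7 in DMSO and 3.34 to 67.17 in CKI libraries. Pearson's r of the log2 values of DMSO replicates, across CREs, was 0.960 to 0.982, and the log2 values of member CREs differed between replicates with an SD of 0.20 to 0.41. All 8 macrophage marker genes had a CRE, with values between 33 and 2625 in the DMSO libraries. Of the markers of other cells, 1 of 3 for B cells (1 to 39), 2 of 3 for fibroblasts (0 to 18), 0 of 3 for T cells and 0 of 3 for epithelial cells had a CRE.

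In UT cells, the start CREs of the cell cycle genes carried clear H3K27ac. Per kb of CRE, the median level of the 38 start CREs was 68.7 normalised reads, against 49.4 for all CREs within 5 kb of a protein-coding start and 20.6 for all CREs. The highest level was at Cdt1, the licensing factor that loads the replicative helicase, with 674 and 667 normalised reads or 209 per kb. Cdkn1b, which encodes the CDK inhibitor p27, followed with 181 per kb. The lowest levels were at Ccne2 (21.6 per kb), a cyclin of the G1/S transition, Rrm2 (22.6), a subunit of ribonucleotide reductase, and Cdc6 (24.5), a licensing factor. Neighbours in this order, such as Ccne2 and Rrm2, had libraries that overlapped per kb, 24.4 and 18.9 against 21.6 and 23.6. Among the kinases, Aurkb (132 per kb) and Aurka (117) stood above Plk1 (108), Cdk1 (104) and Cdk2 (101), with Plk2 at 68.3, Plk3 at 65.7 and Cdc7 at 57.1.

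Genes of the G2/M phases share short sequence elements in their promoters. The promoters of Ccnb2, Ccnb1, Cdk1 and Top2a are shown because their start CREs carried the clearest loss of H3K27ac after LPS among genes of mitosis, as given further on. Sequences are from RefSeq, build GRCm38.p6, and run 5′ to 3′ on the minus strand over the 250 bases before the start of Ccnb2 (chr9:70421555-70421804), Ccnb1 (chr13:100786487-100786736), Cdk1 (chr10:69352913-69353162) and Top2a (chr11:99024190-99024439). Capitals mark matches on either strand to the cell cycle genes homology region (CHR, TTTGAA), to CCAAT, the core of the NF-Y site, and to E2F sites (TTTCCCGC, TTTGGCGC, TTTCGCGC or TTTGCCGC).
Ccnb2: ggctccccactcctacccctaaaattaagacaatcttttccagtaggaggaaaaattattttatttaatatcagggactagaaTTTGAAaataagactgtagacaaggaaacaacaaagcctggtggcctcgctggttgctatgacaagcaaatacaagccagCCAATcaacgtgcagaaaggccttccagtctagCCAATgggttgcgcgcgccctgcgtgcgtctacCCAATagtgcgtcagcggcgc
Ccnb1: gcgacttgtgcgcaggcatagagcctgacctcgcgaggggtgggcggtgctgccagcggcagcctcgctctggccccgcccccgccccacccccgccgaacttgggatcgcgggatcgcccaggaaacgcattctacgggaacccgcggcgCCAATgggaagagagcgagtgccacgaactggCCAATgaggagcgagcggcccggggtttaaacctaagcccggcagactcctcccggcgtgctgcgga
Cdk1: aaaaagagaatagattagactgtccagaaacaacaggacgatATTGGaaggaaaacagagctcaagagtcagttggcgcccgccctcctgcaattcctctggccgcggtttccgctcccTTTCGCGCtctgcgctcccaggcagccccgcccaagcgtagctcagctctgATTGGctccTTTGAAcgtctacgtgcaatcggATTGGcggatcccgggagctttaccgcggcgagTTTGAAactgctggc
Top2a: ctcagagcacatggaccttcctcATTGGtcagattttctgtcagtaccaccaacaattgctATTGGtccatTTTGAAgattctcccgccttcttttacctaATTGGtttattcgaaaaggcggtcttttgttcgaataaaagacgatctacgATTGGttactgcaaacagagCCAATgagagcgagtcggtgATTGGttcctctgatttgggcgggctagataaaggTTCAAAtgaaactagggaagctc
The Ccnb2 stretch holds 1 CHR and 3 CCAAT matches, with 33 bases from each CCAAT to the next. Ccnb1 holds 2 CCAAT matches, Cdk1 holds 2 CHR, 3 CCAAT and 1 E2F match, and Top2a holds 2 CHR and 6 CCAAT matches. RefSeq promoters, here 250 bases before to 50 after the start, were at hand for 31 of the 38 genes, and not for Mcm4, Ccnd1, Ccnd2, Ccne2, Ccna2, Myc and Aurkb. An E2F match was present for 9 of the 31 genes (Cdc6, Cdk1, Cdk2, Cdt1, E2f2, Mcm3, Mcm5, Mcm6 and Mcm7), and 2.26% of all 32851 promoters of this length hold one. CHR matches were present for 10 genes (17.9% of all promoters) and CCAAT for 22 (37.4%). The MYC site CACGTG was found for 1 gene (7.15%), the AP-1 site TGANTCA for 0 (7.81%) and the STAT6-type TTCNNNNGAA for 1 (6.95%). A match is one of letters only, and overlapping matches were counted. A gene was counted with a match in any of its promoters, 36 in all for the 31 genes. The percentages are of single promoters, so the units differ and the gene counts run higher. The E2F match of E2f2 lies in the promoter at its CRE at +846, not at its start CRE.

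The first comparison asked which member CREs change over the LPS time course in DMSO cells. LPS lowered H3K27ac at CREs of the mitotic cyclins, of the E2F genes and of cyclin D1, and raised it at cyclin D2. A CRE was called at an adjusted p under 0.01 from limma's moderated F-test over the 4 times and an absolute log2 difference from UT over 1 at 1 or more times. Of 65 members tested, 7 were called higher and 25 lower, and 33 were not called. Among all 50697 CREs tested, 29.0% were higher and 24.6% lower, and among CREs within 5 kb of a protein-coding start 20.2% and 20.3%. Members were thus called higher in 10.8% and lower in 38.5%, against those shares. The median log2 difference of the members was -0.26 at 30 min, -0.45 at 1 h, -0.44 at 2 h and -0.40 at 4 h, where that of all tested CREs was 0.05, 0.09, 0.02 and 0.08. Of the 25 lower CREs, 15 had their largest difference at 2 h. At the start CREs alone, 2 of 38 were higher and 13 lower.

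**Figure D1:**
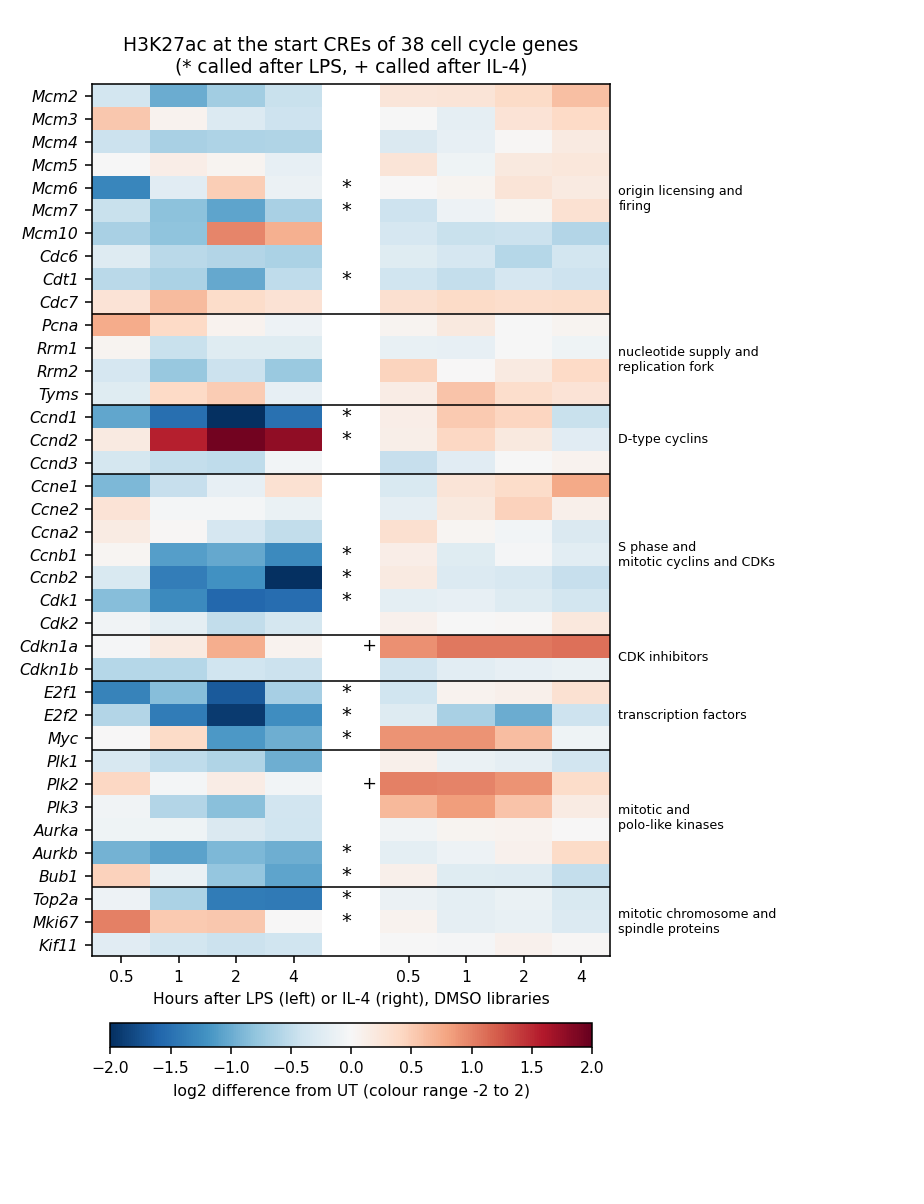
Colour gives the log2 difference from UT at the start CRE of each of 38 genes (rows, by role) at 4 times after LPS (left) and IL-4 (right), as the mean of 2 DMSO libraries against 2 UT libraries. After LPS 15 start CREs were called (asterisks), 13 of them lower, and after IL-4 those of Cdkn1a and Plk2 were called higher (plus signs).

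Among transcription factors, each of the 7 CREs of E2f1, E2f2 and Myc was called, 6 lower and 1 higher. E2f2, an E2F that activates S phase genes, was lower at all 4 of its CREs. At the CRE at +4770 (chr4:136184684-136186420, in an intron), the values were 283 and 249 in UT, 84 and 91 at 30 min, 62 and 43 at 1 h, 24 and 14 at 2 h, and 52 and 40 at 4 h. Each LPS library lay below both UT libraries, and the log2 difference at 2 h was -3.53 ± 0.25 (SE, adjusted p 2.93e-13), the largest of any member. At +846 (chr4:136171465-136175800, in an intron) the values fell from 558 and 586 in UT to 312 and 265, 209 and 234, 124 and 135, and 214 and 181 over the 4 times. At the start CRE (chr4:136178824-136182014, in an exon), 411 and 344 in UT became 244 and 253, 137 and 143, 95 and 97, and 179 and 135. Both CREs had their lowest values at 2 h, with log2 differences of -2.10 ± 0.15 and -1.92 ± 0.17 (adjusted p 2.17e-13 and 1.56e-11). At -3212 (chr4:136176618-136178521), 272 and 275 became 155 and 187, 134 and 119, 63 and 44, and 114 and 77, a log2 difference of -2.27 ± 0.20 at 2 h (adjusted p 6.45e-11). Thus all 4 CREs of E2f2 were partly back at 4 h.

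E2f1 moved in both directions. Its start CRE (chr2:154568376-154570917, in an exon) held 218 and 219 in UT and 91 and 76, 117 and 120, 63 and 67, and 157 and 117 after LPS, with a log2 difference of -1.68 ± 0.20 at 2 h (adjusted p 1.98e-08). The CRE at -4496 (chr2:154573588-154575188, intergenic) was close to empty in UT, with 3 and 6, and held 36 and 22, 21 and 14, 26 and 22, and 87 and 63 after LPS. No LPS library overlapped UT, and the log2 difference at 4 h was 3.08 ± 0.34 (adjusted p 3.5e-08). Myc, which drives growth and entry into the cycle, was higher before it was lower. Its CRE (chr15:61982644-61990162, centred in an intron) held 581 and 669 in UT, 642 and 610 at 30 min, 826 and 804 at 1 h, 292 and 267 at 2 h, and 295 and 337 at 4 h, with log2 differences of 0.38 at 1 h and -1.14 ± 0.12 at 2 h (adjusted p 2.01e-14).

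The D-type cyclins took opposite directions. Of their 13 CREs, 4 were higher and 6 lower. At the start CRE of Ccnd1 (chr7:144938986-144942537, intergenic), 357 and 384 in UT became 208 and 150 at 30 min, 130 and 124 at 1 h, 77 and 101 at 2 h, and 121 and 135 at 4 h. The groups did not overlap, and the log2 difference at 2 h was -2.01 ± 0.18 (adjusted p 8.03e-11). The Ccnd1 CRE at -3671 (chr7:144942661-144944343) went from 54 and 62 to 23 and 12, 22 and 32, 14 and 9, and 21 and 21, a log2 difference of -1.95 ± 0.34 at 2 h (adjusted p 7.51e-05). A further Ccnd1 CRE in an intron, at +2172, was lower at 2 h by a log2 difference of -1.69, and the CRE at +4072, also in an intron, rose at 30 min (46 and 33 in UT, 127 and 130 at 30 min, log2 difference 1.60) and was back at 30 and 34 at 2 h.

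Ccnd2 rose at all 3 of its CREs. The start CRE (chr6:127148861-127153389) held 172 and 137 in UT, 155 and 198 at 30 min, 446 and 478 at 1 h, 615 and 586 at 2 h, and 501 and 573 at 4 h. Values overlapped UT at 30 min and were above it from 1 h, with a log2 difference of 1.93 ± 0.14 at 2 h (adjusted p 6.04e-16). At +3165 (chr6:127147094-127148672, in an intron), a weak CRE with 6 and 6 in UT, values were 20 and 10, 58 and 39, 75 and 48, and 79 and 51, a log2 difference of 2.64 ± 0.33 at 4 h (adjusted p 3.38e-09). The CRE at -2904 rose by 1.68 on the log2 scale at 1 h. At Ccnd3, which has several annotated starts, the CRE at chr17:47504314-47505904 fell from 112 and 117 in UT to 18 and 48, 31 and 39, 18 and 24, and 24 and 26 (log2 difference -2.21 ± 0.32 at 2 h, adjusted p 8.81e-07). Each LPS library there was below UT. The Ccnd3 CREs at chr17:47594842-47596686 and chr17:47599381-47601009 were lower at 30 min, by log2 differences of -1.69 and -1.67, the latter in an exon of the neighbour Bysl, and the former had 175 and 156 at 4 h against 155 and 153 in UT.

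Of 8 CREs of S phase and mitotic cyclins and CDKs, 4 were lower and 0 higher. Ccnb2, a mitotic B-type cyclin, had 130 and 141 in UT at its start CRE (chr9:70420727-70422418), and 107 and 111, 46 and 52, 55 and 56, and 24 and 30 after LPS. All LPS libraries were below UT, and the log2 difference at 4 h was -2.14 ± 0.23 (adjusted p 1.24e-09). Cdk1, the mitotic CDK, had 355 and 352 in UT (chr10:69350449-69353856) and 198 and 189, 118 and 175, 124 and 109, and 110 and 130 after LPS, without overlap, with a log2 difference of -1.56 ± 0.18 at 2 h (adjusted p 2.25e-09). Ccnb1 (chr13:100785770-100787517) held 112 and 123 in UT and 145 and 100 at 30 min, so that the groups overlapped at that time. It then held 41 and 66, 41 and 73, and 52 and 40, with a log2 difference of -1.27 ± 0.26 at 4 h (adjusted p 9.37e-06). The CRE of Cdk2 at +1793 was called lower (-1.20 ± 0.33 at 2 h, adjusted p 0.008), but leaving out either UT replicate, either 4 h replicate, replicate 2 of 1 h or replicate 1 of 2 h each ended this call. Without the latter the log2 difference was -0.61 and the adjusted p 0.407. The start CREs of Ccne1, Ccne2, Ccna2 and Cdk2 were not called, with largest log2 differences of -0.90, 0.27, -0.49 and -0.50.

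**Figure D2:**
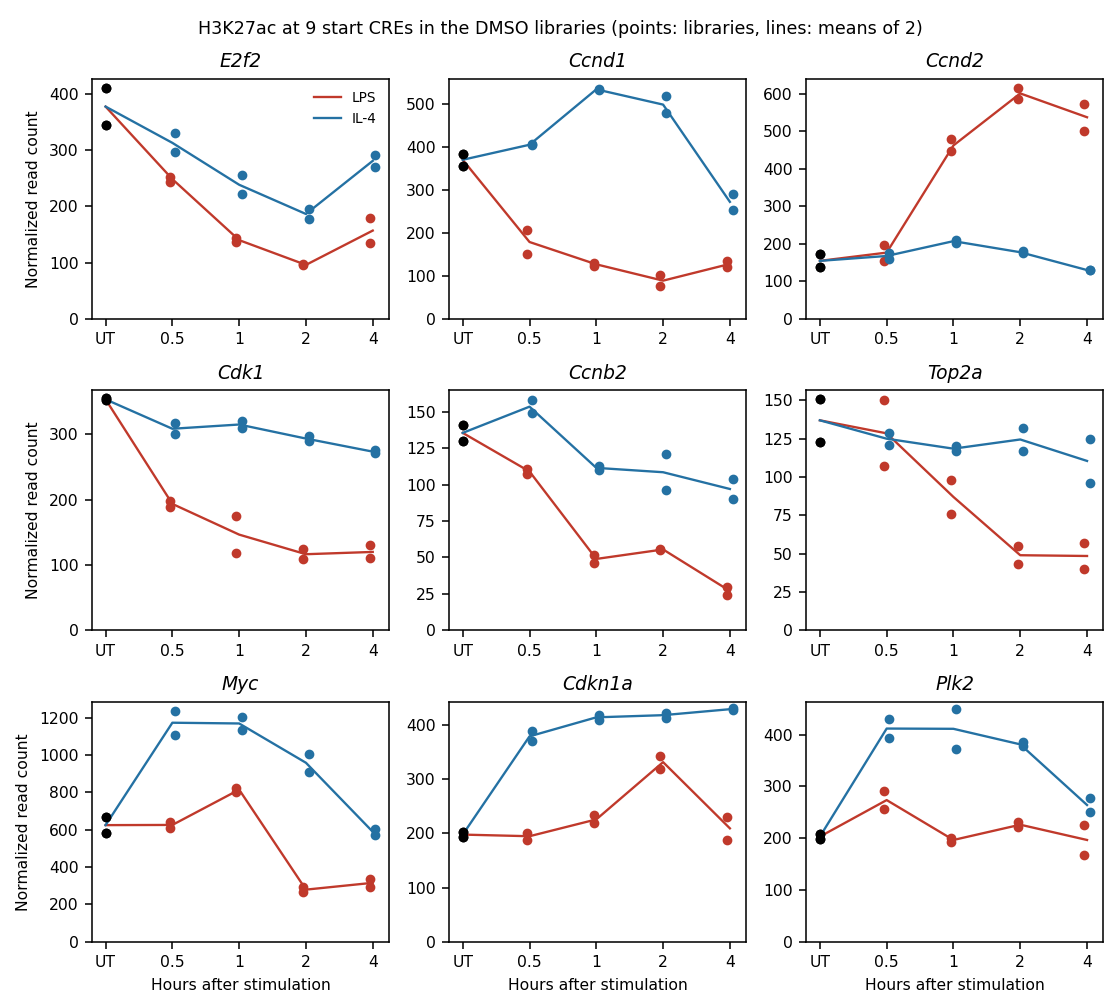
Normalised read counts (y axis, from 0) at the start CREs of 9 genes in UT and at the 4 times (x axis, hours) after LPS (red) or IL-4 (blue) in DMSO cells, with points for libraries and lines for the mean of 2. Values of E2f2, Ccnd1, Cdk1, Ccnb2 and Top2a fell after LPS, Ccnd2 rose after LPS, and Cdkn1a and Plk2 rose after IL-4. UT libraries are shared by both courses.

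Of 17 CREs of origin licensing and firing genes, 5 were lower and 1 higher. Start CREs of the helicase subunit genes Mcm6 (-1.30 ± 0.25 at 30 min, adjusted p 2.48e-06) and Mcm7 (-1.05 ± 0.18 at 2 h, adjusted p 3.74e-05) and of Cdt1 (-1.03 ± 0.12 at 2 h, adjusted p 9.05e-08) were lower. Mcm6 held 112 and 85 at 2 h, both above the 66 and 70 of UT, and 60 and 64 at 4 h. The Mcm6 CRE at +2062, in an intron, rose from 127 and 130 to 429 and 463 at 2 h (log2 difference 1.76). The largest fall was at the CRE at -4478 of Mcm2 (chr6:88900911-88905605), which lies 537 bp from the start of the neighbouring gene Tpra1. It held 776 and 759 in UT and 541 and 688, 319 and 319, 221 and 202, and 286 and 249 after LPS, with a log2 difference of -1.84 ± 0.13 at 2 h (adjusted p 5.32e-15). The Mcm2 start CRE itself was not called (-0.997 ± 0.289 at 1 h, adjusted p 0.0295). The start CREs of Mcm4 and Mcm7 lie nearer to the starts of Prkdc and Ap4m1, genes that begin beside them. Mcm10, which acts when the helicase is switched on, had 92 and 91 in UT and 217 and 159 at 2 h at its start CRE, below the threshold with a log2 difference of 0.98, and a CRE at -2008 that was called lower at 1 h (-1.14).

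The 4 CREs of genes for nucleotide supply and the replication fork (Pcna, Rrm1, Rrm2 and Tyms) were not called. Pcna, the sliding clamp, had 139 and 166 in UT and 218 and 303 at 30 min (log2 difference 0.74, adjusted p 0.000446), and the other 3 had largest log2 differences of -0.76 (Rrm2), -0.44 (Rrm1) and 0.50 (Tyms). The CDK inhibitor CREs were not called either. Cdkn1a, which encodes p21, held 479 and 492 in UT at +872 and 861 and 950, 851 and 910, and 918 and 981 from 30 min to 2 h, all above UT but with a log2 difference of 0.96 ± 0.10 at most (adjusted p 1.86e-12). The start CRE of Cdkn1a reached 0.73 at 2 h and that of Cdkn1b was at -0.57 at 30 min.

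Among the mitotic and polo-like kinase genes, 3 of 9 CREs were lower and 0 higher. Aurkb, which acts at centromeres and in cytokinesis, was lower at its start CRE (254 and 269 in UT, 125 and 120 at 1 h, log2 difference -1.06 ± 0.17, adjusted p 3.9e-06) and at -1751 (255 and 290 in UT, 66 and 93 at 30 min, 235 and 230 at 4 h, log2 difference -1.73 at 30 min). Bub1, a kinase of the spindle checkpoint, had 75 and 79 in UT, 127 and 91 at 30 min and 27 and 44 at 4 h (-1.05 ± 0.25, adjusted p 1.42e-05). Plk1, the mitotic polo-like kinase, had 192 and 176 in UT and 83 and 100 at 4 h, with no overlap but below the threshold (log2 difference -0.97 ± 0.19, adjusted p 0.000452). Aurka, the centrosomal Aurora kinase, had a largest log2 difference of -0.40, and the start CREs of Plk2 and Plk3 had 0.42 and -0.84. Of the genes for mitotic chromosome and spindle proteins, Top2a, DNA topoisomerase II alpha, fell from 123 and 151 (chr11:99023465-99025149) to 55 and 43 at 2 h and 57 and 40 at 4 h (log2 difference -1.42 ± 0.23, adjusted p 3.15e-07). Mki67, the proliferation marker Ki-67, rose from 350 and 355 to 658 and 775 at 30 min (1.01 ± 0.12, adjusted p 3.84e-09) and was at 340 and 369 at 4 h. Kif11, a spindle motor, was not called (-0.43).

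Some calls near the threshold were lost when 1 library was left out. This was so at Mcm7 without replicate 1 of 2 h (-0.82), at Cdt1 without replicate 2 of 2 h (-0.97), at Mcm10 -2008 without UT replicate 1 (-0.93), at Bub1 without replicate 1 of 4 h (-0.77), and at Mki67 without replicate 2 of 30 min (0.89) or UT replicate 1 (1.00), and at Mki67 also after rescaling by median-of-ratios size factors (0.93) or quantile normalization (0.95).

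After IL-4, member CREs were called less widely. Of 63 members tested, 2 were higher and 3 lower, where 13.6% and 11.0% of all 47018 CREs tested, and 7.50% and 5.26% of those within 5 kb of a protein-coding start, were called. The members' shares were 3.17% and 4.76%. Rescaling by median-of-ratios size factors gave 1 higher and 4 lower, and quantile normalization 1 and 5. The CREs at Ccnd2 +3165 and E2f1 -4496 were too low to be tested. The median log2 difference of the members was between -0.11 and 0.02 at the 4 times.

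The Cdkn1a CRE at -292 (chr17:29089905-29091470, intergenic) rose after IL-4. It held 202 and 193 in UT, 369 and 388 at 30 min, 418 and 409 at 1 h, 413 and 422 at 2 h, and 430 and 427 at 4 h. All IL-4 libraries lay above UT, and the log2 difference at 4 h was 1.10 ± 0.11 (adjusted p 5.96e-13). The start CRE of Plk2 (chr13:110393616-110396587), a polo-like kinase of stress responses, held 208 and 198 in UT and 393 and 430, 449 and 373, 377 and 385, and 278 and 250 after IL-4, again without overlap (log2 difference 1.00 ± 0.12 at 30 min, adjusted p 2.66e-11). This lies at the threshold. The call was lost without replicate 2 of 30 min (0.99) or without UT replicate 2 (0.97), and after rescaling (0.95) or quantile normalization (0.92).

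The 3 lower CREs after IL-4 belong to Ccnd3. At chr17:47504314-47505904, 112 and 117 in UT became 49 and 42 at 30 min, 84 and 98 at 1 h, 72 and 100 at 2 h, and 99 and 84 at 4 h (log2 difference -1.25 ± 0.20, adjusted p 1.31e-05). At chr17:47599381-47601009, 175 and 189 became 135 and 148, 93 and 108, 78 and 70, and 103 and 112 (-1.24 ± 0.17 at 2 h, adjusted p 2.04e-07). At chr17:47594842-47596686, 155 and 153 became 127 and 141, 110 and 116, 68 and 72, and 86 and 74 (-1.08 ± 0.17 at 2 h, adjusted p 8.26e-07). All IL-4 libraries were below UT at these CREs. Below the threshold, Myc held 1237 and 1110 at 30 min (log2 difference 0.91 ± 0.08, adjusted p 5.65e-17) and was at 605 and 574 at 4 h. Plk3 reached 0.84 at 1 h, Ccne1 0.76 at 4 h and Ccnd1 0.52 at 1 h, and the E2f2 start CRE had a log2 difference of -0.99 at 2 h.

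LPS and IL-4 were then compared directly at matched times in all 18 DMSO libraries, since the time courses share their UT libraries. Of 65 members, 7 were higher and 28 lower after LPS than after IL-4, where 29.2% of the 50587 CREs tested were higher and 29.2% lower, and 19.6% and 24.6% of those within 5 kb of a protein-coding start. The largest differences were at E2f2 +4770 (-3.12 ± 0.20 at 2 h, LPS minus IL-4, adjusted p 3.06e-20), Ccnd2 +3165 (2.84 ± 0.37 at 1 h) and Ccnd1 -3671 (-2.52 ± 0.29 at 2 h). At the start CRE of Ccnd1 the values at 2 h were 77 and 101 after LPS and 519 and 479 after IL-4, a log2 difference of -2.43 ± 0.15 (adjusted p 4.26e-22). At that of Ccnd2 they were 501 and 573 after LPS and 130 and 130 after IL-4 at 4 h (2.00 ± 0.14, adjusted p 1.12e-19). Myc held 292 and 267 against 911 and 1007 at 2 h (-1.76 ± 0.10, adjusted p 4.18e-21). None of these pairs overlapped. Plk3, Plk2 and Aurkb start CREs were likewise lower after LPS than after IL-4, by log2 differences of -1.43, -1.04 and -1.37, and that of Mcm10 was higher (1.41 at 2 h).

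The CKI libraries gave a further view of the same responses, chosen after seeing the data. With DMSO left out and compound as a factor, 314 UT and LPS libraries of the CKIs called 24 of the 32 members called in DMSO, each in the same direction, and 0 others (5 higher and 19 lower, where 15.4% and 13.5% of all CREs, 28.9% together, were called). All 32 had the same sign. After IL-4, 305 libraries called 1 member, Cdkn1a -292 (log2 difference 1.30), where 5.33% and 3.50% of all CREs, 8.84% together, were called, and 5 of 5 members called in DMSO kept their sign.

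Taken per compound, as the mean log2 value over the stimulated libraries minus that in UT, the LPS response had 1 direction in nearly all CKIs. It was below 0 in 58 of 58 CKIs at the 4 CREs of E2f2, the start CREs of E2f1, Cdk1, Top2a, Aurkb, Cdt1, Mcm7 and Kif11 and at Mcm2 -4478, and above 0 in 58 of 58 at the start CRE of Ccnd2. For Cdk1 it ran from -1.66 in AZD8186 to -0.10 in Omipalisib, with a median of -1.03. For Ccnb2 and Ccnb1 it was below 0 in 57 CKIs, and for Plk1 in 57. Ccnd1 was below 0 in 56 CKIs and above it in Apatinib (0.23) and Omipalisib (0.60), and Myc was below 0 in 52. The direction was mixed at Mki67 (above 0 in 37). Most CKIs have 1 UT library, so a single value carries no replicate error. Some CKIs also lack a time, such as 4 h of LPS in Encorafenib, so the means can cover unlike times. The share of all CREs with 1 sign in 58 of 58 CKIs is not given here. The counts, also those after IL-4, thus do not set the members apart from other CREs.

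After IL-4, Cdkn1a -292 was above 0 in 58 of 58 CKIs, from 0.58 in Filgotinib to 1.74 in Apatinib, and Plk2 in 58 of 58, from 0.11 in TG100115 to 1.21 in Lapatinib. Cdt1 was below 0 in 58 of 58 (median -0.49). Ccnd1 stood apart from DMSO. Its start CRE had a response of 0.16 in DMSO, while it was below 0 in 53 of 58 CKIs with a median of -0.72 and a range from -1.77 in Lenvatinib to 0.63 in OSI930. Ccnd2 had 0.13 in DMSO and a median of -0.33 in the CKIs, of which 42 were below 0. These differences from DMSO were not tested. Apatinib lacks 4 h of IL-4 and XL413 lacks 2 h, so the ranges over CKIs set means of unlike times side by side.

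**Figure D3:**
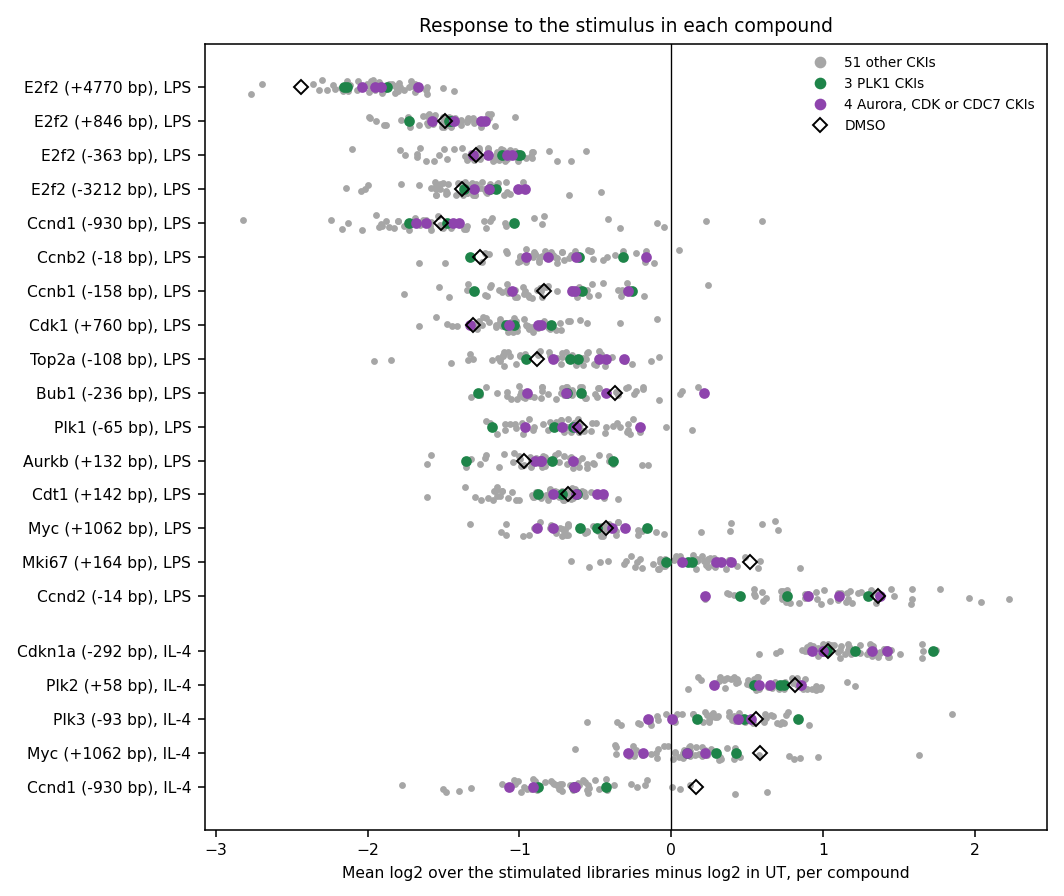
Each point is the mean log2 value over the stimulated libraries minus that in UT (x axis) for 1 compound at the CRE named on the left, with DMSO as open diamonds. LPS responses of E2f2, Cdk1 and Top2a lie below 0 and of Ccnd2 above 0 in 58 of 58 CKIs, and the IL-4 response of Ccnd1 lies below 0 in 53 of 58 CKIs, with DMSO at 0.16.

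The 7 CKIs designed against cell cycle kinases were then compared with DMSO. GSK461364, Volasertib and NMS1286937 have PLK1 as their designated target, MK5108 Aurora kinase A, SNS314 the Aurora kinases, BMS387032 CDK2, CDK7 and CDK9, and XL413 CDC7. PLK1 and the Aurora kinases act in mitosis, CDK2 in S phase, and CDC7 fires replication origins. The question was whether H3K27ac at the cell cycle genes differs under these compounds. Per the study, concentrations were set for an intended target, which for some CKIs is not the designated one. Whether the designated kinases were inhibited in these cells was not tested here. A coefficient per CKI against DMSO, averaged over UT and the stimulated times, was called at an adjusted p under 0.05 (limma, all 324 or 315 libraries) and an absolute log2 difference over 0.5.

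In the UT and LPS libraries, the number of members called higher and lower was 1 and 0 for GSK461364, where 2.08% and 0.150% of all CREs, 2.23% together, were called. It was 13 and 1 for Volasertib (47.3% and 3.90%), 10 and 2 for NMS1286937 (31.8% and 2.59%) and 15 and 1 for MK5108 (43.2% and 2.27%). SNS314 had 4 and 2 (22.6% and 3.50%), BMS387032 3 and 5 (24.1% and 4.88%) and XL413 0 and 1 (9.51% and 1.22%). The 46 higher and 12 lower calls fall on 31 CREs. The 51 other CKIs had a median of 7 higher (0 to 17) and 2 lower (0 to 12).

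In the UT and IL-4 libraries the 7 CKIs had 49 higher and 5 lower calls on 22 CREs. GSK461364 had 8 and 0 (9.64% and 1.15% of all CREs), Volasertib 8 and 1 (46.7% and 1.73%), NMS1286937 4 and 0 (36.5% and 1.73%) and MK5108 10 and 1 (48.9% and 3.13%). SNS314 had 2 and 0 (15.7% and 2.76%), BMS387032 8 and 1 (39.6% and 3.62%) and XL413 9 and 2 (44.0% and 1.68%). The 51 other CKIs had a median of 8 higher (3 to 18) and 1 lower (0 to 8).

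The direction of these calls depended on the scaling. Rescaled by median-of-ratios size factors, the calls were 12 higher and 30 lower with LPS and 25 higher and 37 lower with IL-4, and quantile normalization left 2 higher and 2 lower with LPS and 4 higher and 1 lower with IL-4. The median log2 difference of the members was -0.01 (XL413) to 0.25 (MK5108) with LPS and 0.03 (XL413) to 0.17 (GSK461364) with IL-4. That of all CREs was 0.22 (GSK461364) to 0.58 (Volasertib) with LPS and 0.25 (GSK461364) to 0.58 (MK5108) with IL-4. For CREs within 5 kb of a protein-coding start, the median was 0.05 (XL413) to 0.24 (MK5108) with LPS. With IL-4 it was 0.10 (XL413) to 0.23 (BMS387032) there. Contrast differed between these CKIs, and all of their medians lay below the 53 to 133.7 of the DMSO libraries. A difference from DMSO by compound thus cannot be told apart from one by contrast. The part of contrast in the calls was not tested. The median contrast was 38.4 in the libraries of GSK461364, 11.0 in Volasertib, 21.1 in NMS1286937, 16.0 in MK5108, 30.5 in SNS314, 23.9 in BMS387032 and 17.5 in XL413. With LPS, leaving out DMSO replicate 2 gave 25 calls and leaving out replicate 1 gave 33, in place of 58. Against the mean of the other 57 CKIs there were 5 calls with LPS and 1 with IL-4.

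**Figure D4:**
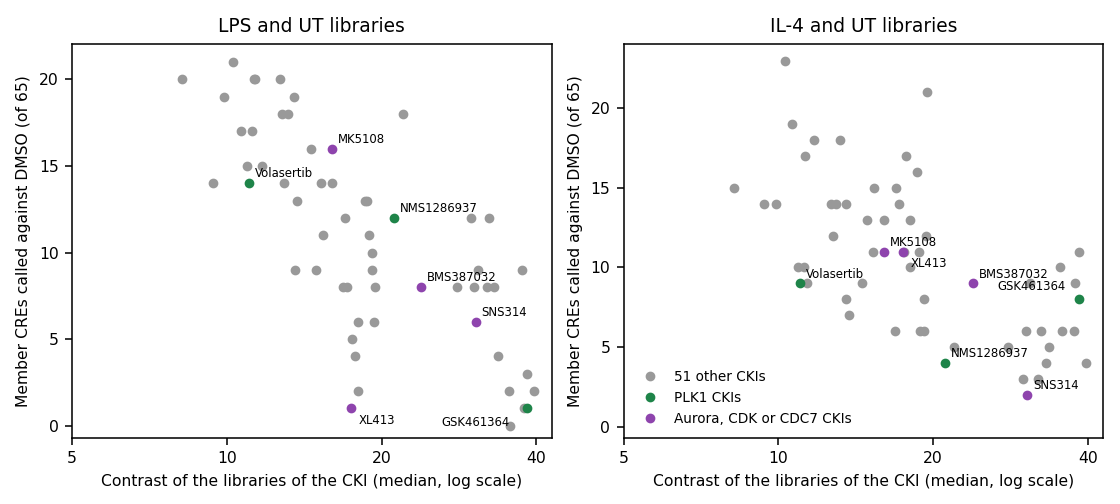
Number of the 65 member CREs called against DMSO (y axis) and median contrast of the libraries (x axis, log scale) for each of 58 CKIs, in the UT and LPS (left) and the UT and IL-4 libraries (right). GSK461364, with a contrast of 38.4, had 1 call with LPS and 8 with IL-4, Volasertib, with a contrast of 11.0, had 14 and 9, and XL413, with a contrast of 17.5, had 1 and 11.

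At the start CREs of the kinases themselves, few calls were made. With LPS, 1 of the 56 pairs of CKI and kinase gene was called, Aurkb in NMS1286937 (log2 difference -0.52 ± 0.20, adjusted p 0.0354), where the 4 LPS libraries held 27 to 141 with a median of 114 and the 8 of DMSO 119 to 142 with a median of 133. With IL-4, 1 pair was called, Cdc7 in GSK461364 (0.51 ± 0.15, adjusted p 0.02). Plk1 under the PLK1 inhibitors had log2 differences of 0.42 (GSK461364), -0.08 (Volasertib) and 0.23 (NMS1286937) with LPS and 0.48, 0.18 and 0.20 with IL-4. In the LPS libraries Plk1 held 130 to 188 under GSK461364, 64 to 134 under Volasertib and 94 to 189 under NMS1286937, all overlapping the 83 to 157 of DMSO. Aurka under MK5108 differed by 0.12 and 0.02, Cdk2 under BMS387032 by 0.07 and 0.19, and Cdc7 under XL413 by 0.34 and 0.10. None of these pairs was called. The call of Aurkb in NMS1286937 was lost without either DMSO replicate, as was that of Cdc7 in GSK461364.

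The members called for the most of the 7 CKIs were mainly weak CREs away from the start. With LPS, Ccnd1 -3671 was higher for 5, Mcm5 -4840 for 4, and Cdc7 -4690, E2f1 -4496, Mcm10 -2008 and the Mcm2 start CRE for 3 each, while Aurkb -1751 was lower for 3. With IL-4, E2f1 -4496 and the Bub1 start CRE were higher for 6, Cdc7 -4690 for 5, and Ccnd2 +3165 and Mcm5 -4840 for 4. In UT of DMSO, E2f1 -4496 held 3 and 6, Cdc7 -4690 11 and 8 and Mcm5 -4840 35 and 35.

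In the column order of the table the CKIs form 6 runs that share no compound, and each CKI was also compared with the other CKIs of its run, at unequal concentrations, a choice made after seeing the data. With LPS, 4 of 58 CKIs had a member called, and with IL-4 9 of 58, and none of the 7 cell cycle CKIs was among them. GSK461364 shares its run with PH797804, whose wide calls are given below, and its reference kept that CKI. XL413 had 2 LPS libraries. The 0 member calls do not show an absence of effect. Over all CREs, 0 to 0.00338% were called for the 7 cell cycle CKIs. At the start CREs of the 8 kinase genes their log2 differences ran from -0.47 to 0.35 with LPS and from -0.24 to 0.23 with IL-4, and the lowest adjusted p (limma) were 0.191 at Plk1 in Volasertib and 0.182 at Plk2 in BMS387032.

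In the same comparison within runs, members were called for CKIs with other targets, in both directions. Under Pimasertib, a MEK inhibitor, Ccnd1 (-0.89 ± 0.16, adjusted p 0.000273), Ccnd1 -3671 (-0.94), Myc (-0.88 ± 0.13, adjusted p 9.64e-06) and Ccnd2 (-0.72 ± 0.13, adjusted p 0.000351) were lower with IL-4, and Ccnd2 was lower with LPS (-0.52), where 1.17% and 3.25% of all CREs were called for Pimasertib with IL-4 and LPS. BGT226, a PI3K and mTOR inhibitor, had 7 members called with LPS, among them Ccnd2 (-0.82 ± 0.12, adjusted p 8.22e-07) and Myc (-0.58), and 11 with IL-4, among them Ccnd1 (-1.15 ± 0.11, adjusted p 1.99e-12). Omipalisib, also against PI3K and mTOR, had Ccnd1 lower with IL-4 (-1.02 ± 0.18, adjusted p 7.8e-05), and 2.52% of all CREs were called for it. Higher with IL-4 were Ccnd1 and Myc under Afatinib, an inhibitor of EGFR family kinases (0.84 ± 0.18, adjusted p 0.00903, and 0.58 ± 0.12, adjusted p 0.00458), with 0.372% of all CREs called. Under AMG208 the same CREs were higher with IL-4 (0.81, adjusted p 0.0212, and 0.55, adjusted p 0.0151), with 0.265% of all CREs called. Of all CREs, 6.74% and 11.3% were called for BGT226 with LPS and IL-4. PH797804 had 17 and 13 members called, among them Ccnd1, higher with IL-4 (0.75), but its calls cover 41.7% and 45.1% of all CREs and its 30 min LPS library held 12450 CREs at 0. These CKIs were chosen for naming after their values were seen.

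Finally, families of CKIs were compared with CKIs, at unequal concentrations, as the replicates and DMSO left out. For 3 PLK1 CKIs against 51 CKIs of other families, and for the 4 Aurora, CDK or CDC7 CKIs against the same 51, limma called 0 of 59167 CREs at an adjusted p under 0.05, with 346 (0.585%) and 698 (1.18%) at an unadjusted p under 0.05. The percentage called was 0 in both. Both shares at an unadjusted p lie below the proportion of 0.05 that such a p marks on average where no CRE differs. Why they lie below it was not tested, and 0 calls do not show an absence of effect. Of 65 members, 2 and 2 had an unadjusted p under 0.05. Coefficients of the members ran from -0.20 to 0.16 for the PLK1 CKIs and from -0.18 to 0.15 for the others.

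The lowest unadjusted p for the PLK1 CKIs were at Ccna2, the S phase and G2 cyclin (-0.18, 95% interval -0.35 to -0.02, p 0.024), and Mcm3 (-0.20, p 0.0484), followed by Tyms (0.16), Aurkb -4548 (0.12) and Plk1 (-0.12). For the Aurora, CDK or CDC7 CKIs they were at Bub1 (-0.18, interval -0.33 to -0.03, p 0.017), Ccne2 (-0.17, p 0.0424), Top2a (-0.17), Cdk2 +1793 (0.15) and Cdt1 -3302 (0.12). All of these had an adjusted p of 1. XL413 lay at -0.64 at Bub1 and -0.71 at Ccne2, relative to the mean of all CKIs at matched stimulus and time, where the other 3 CKIs lay between -0.06 and 0.03 and between -0.02 and 0.20. Without XL413 the coefficients at Bub1 and Ccne2 were -0.10 and -0.04. At Cdk1 the intervals were -0.13 to 0.11 and -0.15 to 0.07, and at Plk1 -0.26 to 0.03 and -0.19 to 0.07. These coefficients average over UT, LPS and IL-4 at all times, relative to other CKIs. They cannot be set against the LPS differences at single times in DMSO cells, and a difference limited to 1 stimulus or time would be diluted. The response to LPS or IL-4 was compared in the same way after seeing the data. It gave 0 called members for both families, and 0 of all 59167 CREs were called. An unadjusted p under 0.05 (limma) was found for 0 to 4 members and for 1102 to 4285 of all CREs.

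**Figure D5:**
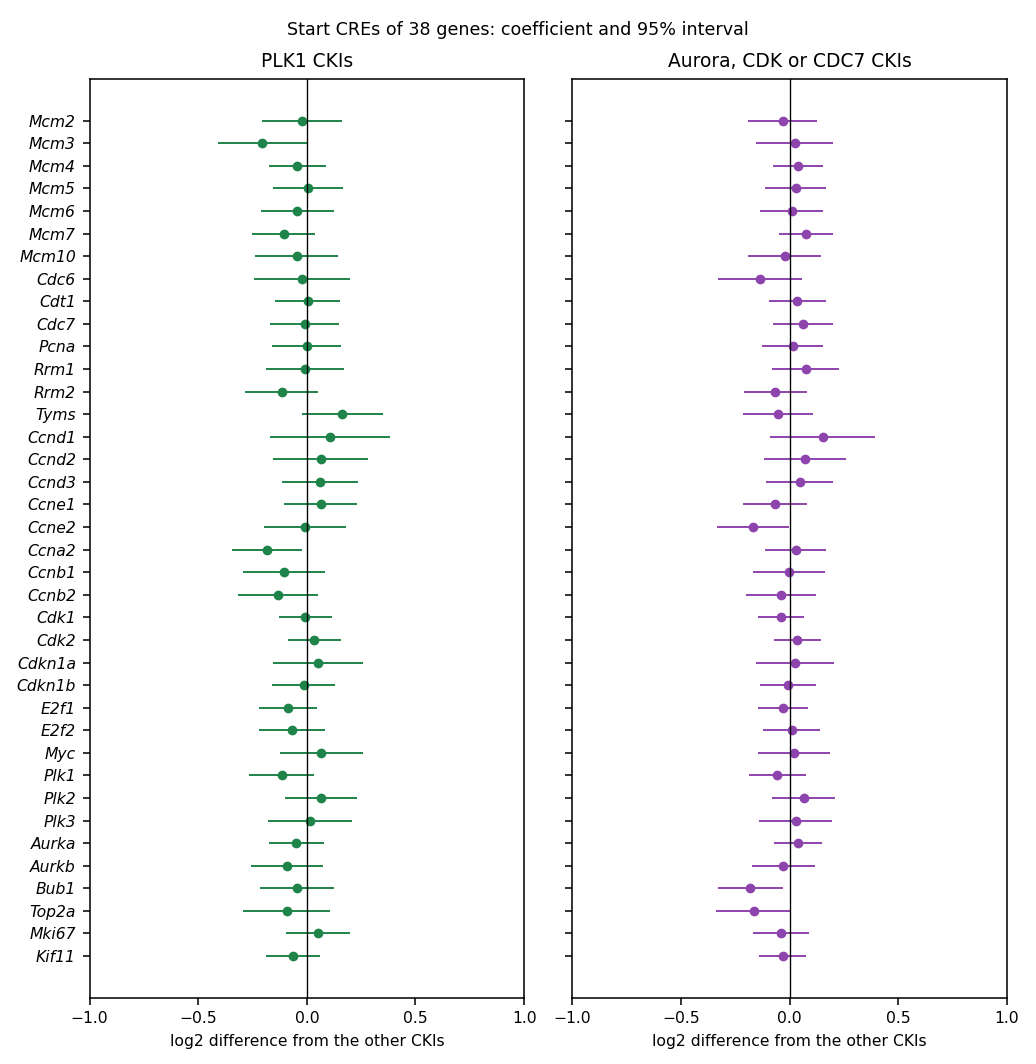
Coefficient (points) and 95% interval (bars) on the log2 scale (x axis) of the 3 PLK1 CKIs (left) and the 4 Aurora, CDK or CDC7 CKIs (right) against 51 CKIs of other families at the start CREs of 38 genes. Coefficients lie between -0.20 and 0.16, and 0 were called.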

How the data were processed

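H3K27ac ChIP-seq was measured in 564 libraries. Per the methods of the study, reads were mapped to mm10 with ShortStack and counted in CREs, and the submitters' processing notes name Bowtie and SAMtools. Each deposited value is a score, a normalised read count that the authors scaled per library and rounded, so count models were not used. Groups came from the treatment labels.

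CREs were tied to RefSeq starts of mm10 by their centre (within 5 kb). Tests used limma 3.58.1 in R 4.3.3 on log2(value + 5) with a trended prior variance, and at weak CREs this pseudocount makes log2 differences too small. Tests covered CREs with a mean of at least 10, with Benjamini-Hochberg adjustment across all of them. In the comparison of families, each CKI gave 1 value, with run as a factor. Scripts were tested on simulated data.

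The CREs with the largest called differences (12 after LPS, 8 after IL-4), the start CREs of 8 kinase genes, up to 8 CREs called for the most CKIs and 5 with the lowest p per family were named by rule. Others that are named account for genes by role or were chosen after their values were seen. Members and lists were chosen with earlier results of these data known. Alternatives covered the pseudocount, the filter, the scaling, the threshold, the window, the replicate block, the reference and left-out libraries.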

Additional observations from a re-analysis of the deposited data

Results flagged for a closer look

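In the comparison of families, 17 named CREs (the kinase start CREs and those with the lowest p) were examined in the 4 Aurora, CDK or CDC7 CKIs for a single CKI far from the other 3, and 2 were found. Chance alone marks about 1 in 20 such groups where CREs are picked without regard to their values. Those with the lowest p, Bub1 among them, were picked from these same values, so this rate does not hold for them. At the start CRE of Bub1, XL413 lay lowest at -0.64 on the log2 scale relative to the mean of all CKIs at matched stimulus and time, where the others lay between -0.06 and 0.03. At the start CRE of Cdk2, XL413 lay lowest at -0.03, where the others lay between 0.08 and 0.09. XL413 has 6 libraries, the fewest of the 7 cell cycle CKIs, and lacks 2 h and 4 h of LPS and 2 h of IL-4. The part of this in its values was not tested.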

How the results depend on the processing

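Over the planned and added alternatives, the 32 members called after LPS became 24 to 42 under the scalings, pseudocounts, filters and thresholds, 17 within 1 kb of a start, where 40 CREs were tested, and 24 in CKI libraries, with or without PH797804. Leaving out 1 DMSO library gave 30 to 33. After IL-4, 5 became 9 with a pseudocount of 1, 3 with a pseudocount of 20, 21 at an absolute log2 difference over 0.5, and 1 in CKI libraries with or without PH797804, and 4 to 7 with 1 library left out. LPS against IL-4 gave 35, 19 within 1 kb and 34 to 36 with 1 library left out. For the 7 CKIs against DMSO, the 58 calls with LPS and 54 with IL-4 became 4 and 5 after quantile normalization, 5 and 1 against the mean of the other 57 CKIs, 4 and 15 over an absolute log2 difference of 1, 23 and 23 within 1 kb, and 0 and 0 against other CKIs of the run, with 25 to 33 and 40 to 45 when a DMSO replicate was left out. Apart from the window and the threshold, whose construction changes the count, the cause was not tested. The families had 0 calls under all alternatives run, which does not show an absence of effect. In the PLK1 family, uncalled coefficients changed sign at Plk1 without runs (0.04), and in UT libraries alone at Mcm3 (0), Tyms (-0.03), Aurkb -4548 (-0.04) and Plk1 (0.11).

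With the replicate number as a block, 32, 5 and 35 members were called, as without it. Over 36 pairs of DMSO groups, samples of 1 number had correlations of their deviations between -0.0873 and 0.0664, with 0 over 0.1, so the numbers were not taken to pair the samples. Most CKI groups hold 1 library.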

Other observations

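Of 102 other cell cycle genes, 101 had a CRE within 5 kb, with 139 CREs in all. After LPS, 15 of 132 tested were higher and 25 lower, against 29.0% and 24.6% of all tested CREs. Among CREs within 5 kb of a protein-coding start, the shares were 20.2% and 20.3%. Other mitotic genes had 3 higher and 12 lower of 30, and checkpoint genes 5 higher and 0 lower of 17. The start CRE of Cenpa, the centromeric histone, fell from 444 and 469 in UT to 95 and 109 at 2 h of LPS (log2 difference -2.11 ± 0.17, adjusted p 3.88e-13). Falls also occurred at 2 CREs of Mad1l1, a gene of the spindle checkpoint, at -2456 (184 and 165 to 19 and 35 at 1 h) and at +1860 (144 and 147 to 37 and 21 at 2 h). The largest rises were at the start CRE of Pola2, a subunit of DNA polymerase alpha (12 and 10 to 321 and 284 at 2 h, log2 difference 4.26 ± 0.18), at -4128 of Gadd45a, a gene of the DNA damage response (50 and 43 to 388 and 367 at 1 h, 2.90), and at +4991 of Cdk6, the partner of D-type cyclins (44 and 54 to 345 and 316 at 1 h, 2.64).

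After IL-4, 6 of 134 were higher and 2 lower, against 13.6% and 11.0% of all. Among CREs within 5 kb of a protein-coding start, the shares were 7.50% and 5.26%. A start CRE of Mad1l1 rose from 5 and 5 to 76 and 62 at 4 h (2.88 ± 0.30, adjusted p 5.12e-10), where after LPS it held 3 to 11. The start CRE of Pola2 rose here too (82 and 66 at 30 min, 2.30 ± 0.26). At +4822 of Cdca8, which belongs to the complex of Aurora B, values went from 3 and 5 to 30 and 38 at 4 h. The falls were at -3280 of Tk1, thymidine kinase (609 and 548 to 297 and 233 at 30 min), and at -4560 of Mdm2, which restrains p53 (117 and 108 to 63 and 36 at 1 h). The Mdm2 CRE held 383 and 448 after 30 min of LPS.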
